A study of Mus musculus with 16 samples.

Results

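The 10 genes described here encode ligands, receptors and an adaptor of the ErbB, neuregulin and insulin-like growth factor (IGF) pathways: Nrg1, Igf1, Egfr, Erbb2, Erbb3, Erbb4, Igf1r, Igf2r, Insr and Irs1. They were chosen by name from 21883 protein-coding genes, and every peak overlapping a gene body or the 5 kb on either side of it was assigned to that gene. Peaks came from chromatin immunoprecipitation and sequencing (ChIP-seq), in which DNA bound by a protein is recovered with an antibody and sequenced, of mouse heart ventricles at postnatal day 15. Control mice had been injected with phosphate-buffered saline, and treated mice with 2 aminoglycosides, paromomycin and neomycin (Paro/Neo, 150 mg/kg, 2 times a day, intraperitoneally), for 7 days from postnatal day 7. For each of 2 antibodies, raised against Meis1/2 and Hoxb13, there were 2 control and 2 Paro/Neo libraries with a peak list each. Peaks of the Meis1/2 antibody are called Meis1 peaks here, and Meis1 and Meis2 cannot be told apart in them. The 8 input samples of the series were not analysed here. The labels name no strain or sex. The labels state that 2 hearts served as biological duplicates per sample, so a library may be a pool or a single heart, and the spread between libraries may be partly technical. The deposited naming of the second-replicate Meis1 lists carries the letter of the opposite group; the labels were followed, and the treatment comparison is also given with these lists exchanged.

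Neuregulin 1 is released by endothelial cells of the heart and binds ErbB4 and ErbB3, which signal in pairs with ErbB2. ErbB2 has no known ligand of its own, and ErbB3 has little kinase activity. The IGF1 receptor and the insulin receptor phosphorylate insulin receptor substrate 1 (Irs1), which recruits PI3K, while Igf2r carries IGF2 to the lysosome and does not signal in that way. Neuregulin and ErbB2 signalling is known to sustain the division of cardiomyocytes in the newborn mouse heart. Meis1 and Hoxb13, both DNA-binding homeodomain proteins, are studied for the opposite role, the exit of these cells from the cell cycle. The comparison asks where peaks of each antibody lay at these genes with and without the drugs.

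Of the 10 genes, 8 held a peak of at least 1 library, and Nrg1 and Igf1 held none in any of the 8. Among all protein-coding genes 49.9% held none. The genes carried 11 Meis1 peaks in 7 merged regions and 33 Hoxb13 peaks in 25 merged regions, a region being the union of overlapping peaks of the 4 libraries of an antibody. Insr, Igf1r and Egfr carried a Meis1 region shared by 2 or more libraries (3 of 10 genes, against 6.18% of all protein-coding genes). Igf1r, Igf2r, Irs1 and Erbb2 carried such a Hoxb13 region (4 of 10, against 22.9%). With 3 or more libraries required, Insr was left for Meis1 (1 of 10, against 3.37%) and Igf1r for Hoxb13 (1 of 10, against 6.8%). No region at the 10 genes was called in all 4 libraries of an antibody, where the shares of all genes were 1.75% for Meis1 and 2.84% for Hoxb13.

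Gene length bears on these counts, because a longer window can hold more peaks. The median length was 108 kb for the 10 genes and 17.2 kb for all protein-coding genes. Among the 4388 protein-coding genes of 50 to 300 kb, 13.9% held a Meis1 region called in at least 2 libraries and 27.9% a Hoxb13 region; of the 6 members in that range, 3 did for each antibody. This length range was chosen after the values were seen. Peaks per Mb of window were lower at the members than over all protein-coding windows in all 8 libraries, at 0.369 to 0.885 times the overall density, while Nrg1 and Erbb4 made up 70.2% of the members' 3.1 Mb.

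**Figure D1:**
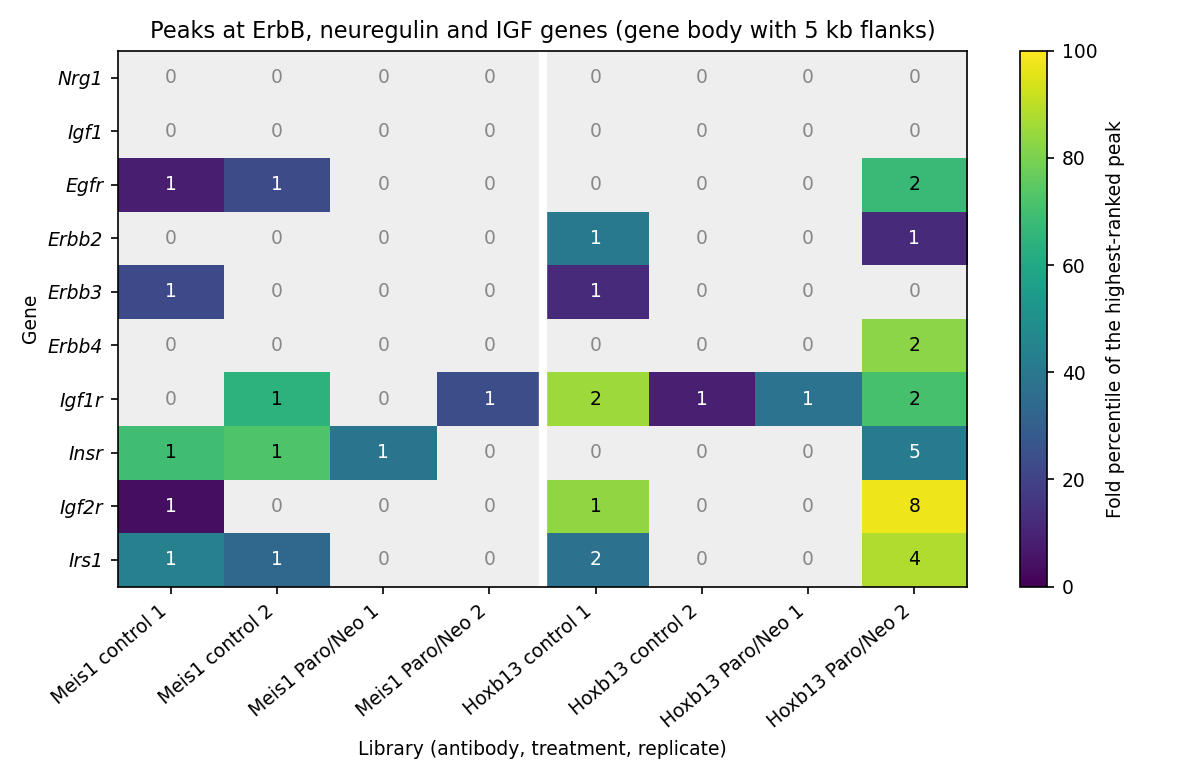
Number of peaks at each gene (rows) in each library (columns); colour gives the fold percentile of the highest-ranked peak in its own list and grey marks 0 peaks. Nrg1 and Igf1 are empty in all 8 columns, Igf1r is the row with a peak in all 4 Hoxb13 libraries, and Hoxb13 Paro/Neo replicate 2 holds 24 of the 33 Hoxb13 peaks.

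The ligand genes were without peaks. Nrg1 (chromosome 8, 31807452 to 32891609 of mm10, 1.08 Mb) held 0 peaks in each of the 8 libraries. Of the 59 protein-coding genes of at least 1 Mb, a class set after the values were seen, 14 (23.7%) shared that absence. A Meis1 peak lay at 54.2% of these long genes and a Hoxb13 peak at 64.4%. Igf1 (chromosome 10, 87858265 to 87937047, 78.8 kb), the growth hormone-dependent ligand of Igf1r, also held 0 peaks in each library. Depth of sequencing is unknown here, so no detection limit can be set for these absences.

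Among the ErbB receptor genes, Egfr held the only Meis1 region repeated between libraries, and the peaks at Erbb2 and Erbb3 lay beside or within neighbouring genes. At Egfr, the epidermal growth factor receptor (chromosome 11, 16752203 to 16913907), Meis1 control replicates 1 and 2 had overlapping peaks of 702 and 435 bp that span 16816201 to 16816902, inside the gene, with the nearer edges 63998 and 64058 bp from its start, and also within the non-coding antisense gene Egfros. They ranked 3235 of 3529 and 2446 of 3176 in their lists by fold enrichment, and both Paro/Neo libraries had none. Deposited −log10 q was 1.57 and 2.47, so at −log10 q of at least 2 the region was left in control replicate 2 alone. Hoxb13 peaks at Egfr were found in Paro/Neo replicate 2 alone, at 16794893 to 16795376 and 16798192 to 16798376 (fold percentiles 26.6 and 67.5; a percentile is the share of peaks in the list with an equal or lower fold).

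Erbb4, the neuregulin receptor of cardiomyocytes (chromosome 1, 68031884 to 69108576, 1.08 Mb), had no Meis1 peak. Its Hoxb13 peaks, again of Paro/Neo replicate 2 alone, were 248 bp wide at 69106041 to 69106288, from 1771 to 2018 bp downstream of the start site, and 697 bp wide at 68835848 to 68836544. The first ranked 2977 of 16963 (percentile 82.5) and the second 14468 (percentile 14.7). The Erbb4 start itself was not covered.

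At Erbb2 (chromosome 11, 98412484 to 98437716), Hoxb13 control replicate 1 had a peak of 471 bp at 98438435 to 98438905 and Paro/Neo replicate 2 one of 1038 bp at 98437932 to 98438969. Both began past the end of Erbb2, by 719 and 216 bp, and lay within Mien1, its neighbour; the wider one reached 31 bp into the Mien1 promoter window. Their percentiles were 40.3 and 12.0. Erbb3 (chromosome 10, 128567523 to 128589635) had a single peak of each antibody, both in control replicate 1 and both outside the gene. The Meis1 peak spanned 128565969 to 128566147 (rank 2756 of 3529) and the Hoxb13 peak 128566047 to 128566359 (rank 4558 of 5202), with 101 bp in common. The nearer of them lay 1164 bp from Erbb3, and both overlapped the promoter window of Pa2g4, which encodes an ErbB3-binding protein, by 179 and 138 bp.

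Among genes with a matched promoter window, the start of Irs1 lay in a Hoxb13 peak in 2 libraries. Those of Igf1r and Igf2r did in 1, Paro/Neo replicate 2. Erbb3, Nrg1 and Insr had no matched window, so peaks were not placed against their starts. RefSeq promoter windows (assembly GRCm38.p6, the same chromosome sequences as mm10; 250 bases before to 50 after a start) were matched for 7 of the 10 genes, Erbb2, Erbb4, Egfr, Igf1, Igf1r, Igf2r and Irs1. Peaks covered all 300 bases at Irs1 in Hoxb13 control replicate 1 and Paro/Neo replicate 2, and at Igf1r and Igf2r in Paro/Neo replicate 2. No Hoxb13 peak of control replicate 2 or Paro/Neo replicate 1 and no Meis1 peak touched any of the 7 windows. Of 32851 RefSeq promoter windows, peaks touched 10.8%, 2.05%, 1.34% and 23.1% in Hoxb13 control replicates 1 and 2 and Paro/Neo replicates 1 and 2, and 1.47% in any Meis1 library. The 3 covered windows are printed to show their base composition, with Igf1 as an uncovered window and Pa2g4 as the neighbour of Erbb3 whose window both antibodies reached; capitals mark CpG dinucleotides. The Igf1 start in that table lies 2846 bp inside the outer limit of the gene.
Igf1r, chr7:67952007-67952306, plus strand: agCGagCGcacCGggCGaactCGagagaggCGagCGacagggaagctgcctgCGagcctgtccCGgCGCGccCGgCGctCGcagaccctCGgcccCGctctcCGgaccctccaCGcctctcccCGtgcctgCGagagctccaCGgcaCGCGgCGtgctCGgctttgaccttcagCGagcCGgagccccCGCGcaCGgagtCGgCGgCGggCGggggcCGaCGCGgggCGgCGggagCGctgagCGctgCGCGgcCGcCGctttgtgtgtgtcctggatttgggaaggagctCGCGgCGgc
Irs1, chr1:82291390-82291689, minus strand: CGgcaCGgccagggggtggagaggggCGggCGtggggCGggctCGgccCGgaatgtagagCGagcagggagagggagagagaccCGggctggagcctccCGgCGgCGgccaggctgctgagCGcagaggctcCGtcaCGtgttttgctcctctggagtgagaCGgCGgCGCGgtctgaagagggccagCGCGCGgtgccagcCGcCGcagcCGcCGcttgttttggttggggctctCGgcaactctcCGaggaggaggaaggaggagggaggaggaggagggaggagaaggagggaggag
Igf2r, chr17:12769657-12769956, minus strand: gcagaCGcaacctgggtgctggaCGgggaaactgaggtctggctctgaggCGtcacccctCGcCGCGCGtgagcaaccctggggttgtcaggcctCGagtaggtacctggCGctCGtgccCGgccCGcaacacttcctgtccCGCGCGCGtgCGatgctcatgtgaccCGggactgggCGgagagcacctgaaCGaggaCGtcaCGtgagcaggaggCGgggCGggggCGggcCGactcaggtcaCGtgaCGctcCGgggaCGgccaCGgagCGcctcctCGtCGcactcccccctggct
Igf1, chr10:87860861-87861160, plus strand: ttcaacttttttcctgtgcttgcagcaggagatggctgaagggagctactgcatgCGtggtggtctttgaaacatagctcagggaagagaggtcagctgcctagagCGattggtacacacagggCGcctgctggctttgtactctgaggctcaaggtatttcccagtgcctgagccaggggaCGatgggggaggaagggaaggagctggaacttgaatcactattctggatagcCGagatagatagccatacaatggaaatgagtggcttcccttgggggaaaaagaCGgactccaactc
Pa2g4, chr10:128565885-128566184, minus strand: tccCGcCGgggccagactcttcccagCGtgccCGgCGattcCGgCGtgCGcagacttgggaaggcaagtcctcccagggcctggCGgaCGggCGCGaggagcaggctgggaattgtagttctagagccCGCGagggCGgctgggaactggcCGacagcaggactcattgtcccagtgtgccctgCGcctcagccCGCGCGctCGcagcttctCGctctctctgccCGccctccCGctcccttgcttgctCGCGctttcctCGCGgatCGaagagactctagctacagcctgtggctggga

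The covered windows were rich in CpG. They held 48 CpG at Igf1r, 34 at Igf2r and 28 at Irs1, with 76.0%, 70.7% and 71.3% G or C. The uncovered member windows held fewer, with 21 at Erbb2, 17 at Erbb4, 15 at Egfr and 6 at Igf1. Over all windows the median was 7 CpG and 52.7% G or C. In Hoxb13 Paro/Neo replicate 2, peaks touched 60.1% of windows with 21 to 67 CpG, 28.4% with 8 to 20, 4.82% with 4 to 7 and 1.45% with 0 to 3. In control replicate 1 the shares were 31.8%, 11.1%, 1.02% and 0.165%. The order was the same in control replicate 2 (6.22% to 0.0388%) and Paro/Neo replicate 1 (4.1% to 0.0291%), and in the Meis1 libraries together it ran from 2.47% to 0.349%. The number of CpG and the Hoxb13 calls therefore moved together over all promoters, and its part in the calls at Igf1r, Igf2r and Irs1 was not tested.

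Letters of homeodomain motifs were not seen in the covered windows. On both strands the windows were searched for TGACAG, the core of the Meis motif (in 19.2% of all promoter windows), TGATTGAC, a Hox and Meis composite (0.77%), and the Hoxb13-type strings TTTATNG (10.9%), TTTACNAG (2.05%) and CCAATAAA (1.12%); CCAATAAA overlaps TTTATNG on the opposite strand, and TGACAG can overlap the end of TGATTGAC. The 1 match among the 7 member windows was TTTATTG at Erbb4, 76 bp before the start, in a window without a peak. An absent match says only that these letters are not in these 300 bases.

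**Figure D2:**
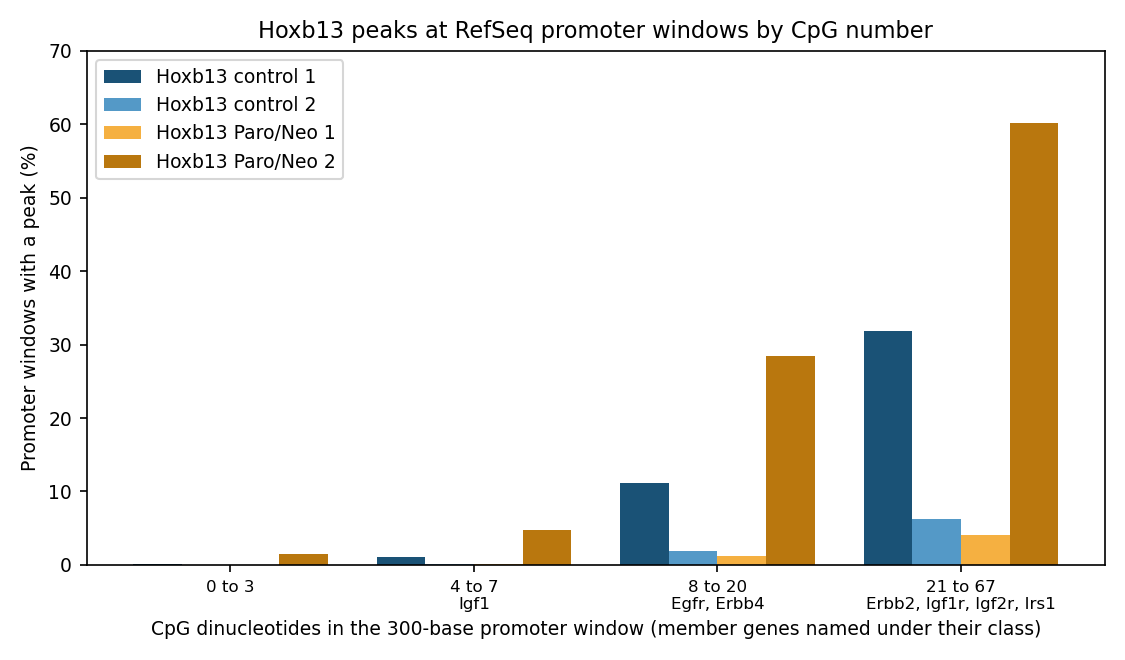
Share of RefSeq promoter windows touched by a peak in each Hoxb13 library (bars), in 4 classes of CpG number, with the members named under their class. In each library the bars climb from 0 to 3 CpG to the class of 21 to 67, where Erbb2, Igf1r, Igf2r and Irs1 fall.

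Igf1r, the receptor of IGF1 (chromosome 7, 67952257 to 68233668, 281 kb), had a Hoxb13 peak in all 4 libraries, divided between 2 regions called in 3 libraries each. Upstream of the start, control replicate 1 had a peak of 856 bp at 67951058 to 67951913 (percentile 85.4), control replicate 2 one of 283 bp at 67951549 to 67951831 (8.65), and Paro/Neo replicate 2 one of 1459 bp at 67950866 to 67952324 (42.7). The control peaks ended 344 and 426 bp before the start site, while the Paro/Neo replicate 2 peak crossed it by 67 bp; Paro/Neo replicate 1 had no peak there. The other region lay deep in the gene, 177 kb from the start: 361 bp in control replicate 1 at 68129088 to 68129448 (percentile 6.82), 287 bp in Paro/Neo replicate 1 at 68129106 to 68129392 (38.0) and 366 bp in Paro/Neo replicate 2 at 68129050 to 68129415 (70.9). In each treatment 1 library, control replicate 1 and Paro/Neo replicate 2, had both regions. Upstream, deposited −log10 q was 3.51 in control replicate 1, 1.26 in control replicate 2 and 2.84 in Paro/Neo replicate 2. Deep in the gene it was 1.12 in control replicate 1, 1.35 in Paro/Neo replicate 1 and 3.77 in Paro/Neo replicate 2. At −log10 q of at least 2, control replicate 1 and Paro/Neo replicate 2 kept the upstream region. The deep region was then left in Paro/Neo replicate 2 alone. A Meis1 region at Igf1r, elsewhere in the gene, was called in control replicate 2 at 68194377 to 68194642 (percentile 64.7) and in Paro/Neo replicate 2 at 68194388 to 68194595 (24.2).

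Insr, the insulin receptor gene (chromosome 8, 3150922 to 3279649, 129 kb), carried the Meis1 region with the most support of the set. Its peaks were 263 bp in control replicate 1 at 3187597 to 3187859, 295 bp in control replicate 2 at 3187619 to 3187913 and 199 bp in Paro/Neo replicate 1 at 3187643 to 3187841. They ranked 1089 of 3529, 881 of 3176 and 950 of 1541, with deposited −log10 q of 6.97, 8.44 and 3.72. Both controls therefore placed it in the upper part of their lists, at percentiles 69.2 and 72.3, Paro/Neo replicate 1 at 38.4, and Paro/Neo replicate 2 did not call it. Hoxb13 peaks at Insr came from Paro/Neo replicate 2 alone. Of these 5 peaks, 1 covered the Meis1 region and another, at 3279271 to 3279642, ended 7 bp inside the upper end of the gene and was the highest of the 5, at percentile 41.1. Without a matched promoter window for Insr, it was not determined whether that end is the start of the gene.

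Igf2r, the receptor that clears IGF2 and an imprinted gene (chromosome 17, 12682406 to 12769706, 87.3 kb), held the most peaks of the 10 genes. Hoxb13 Paro/Neo replicate 2 had 8 peaks there, control replicate 1 had 1, and the other Hoxb13 libraries had 0. The shared region held the Hoxb13 peak of highest percentile in the whole gene set, 463 bp in Paro/Neo replicate 2 at 12734213 to 12734675 (rank 407 of 16963, percentile 97.6, −log10 q 9.56). In control replicate 1 the region was 191 bp at 12734235 to 12734425 (rank 857 of 5202, percentile 83.5), below the upstream Igf1r peak of that library (rank 762). Its nearer edge lay 35031 bp into the gene. Of the remaining 7 peaks of Paro/Neo replicate 2, with percentiles from 16.1 to 75.9, 3 also overlapped Airn, the antisense non-coding gene of this imprinted locus. Control replicate 1 of Meis1 had a peak at 12725426 to 12725675 near the bottom of its list (rank 3394 of 3529).

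Irs1, the docking protein downstream of Igf1r and Insr (chromosome 1, 82233105 to 82291439, 58.3 kb), had Hoxb13 peaks over its start site in control replicate 1 (707 bp, 82291129 to 82291835, percentile 37.8) and Paro/Neo replicate 2 (904 bp, 82290962 to 82291865, percentile 88.1). The same libraries called a region from 7256 to 8700 bp downstream of the start, 390 bp wide at percentile 11.2 and 1445 bp wide at percentile 66.0. Paro/Neo replicate 2 had 2 further peaks at percentiles 14.4 and 17.4. Meis1 peaks at Irs1 did not repeat: control replicate 1 had 204 bp at 82257604 to 82257807 (percentile 43.7) and control replicate 2 had 185 bp at 82283205 to 82283389 (percentile 33.5).

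**Figure D3:**
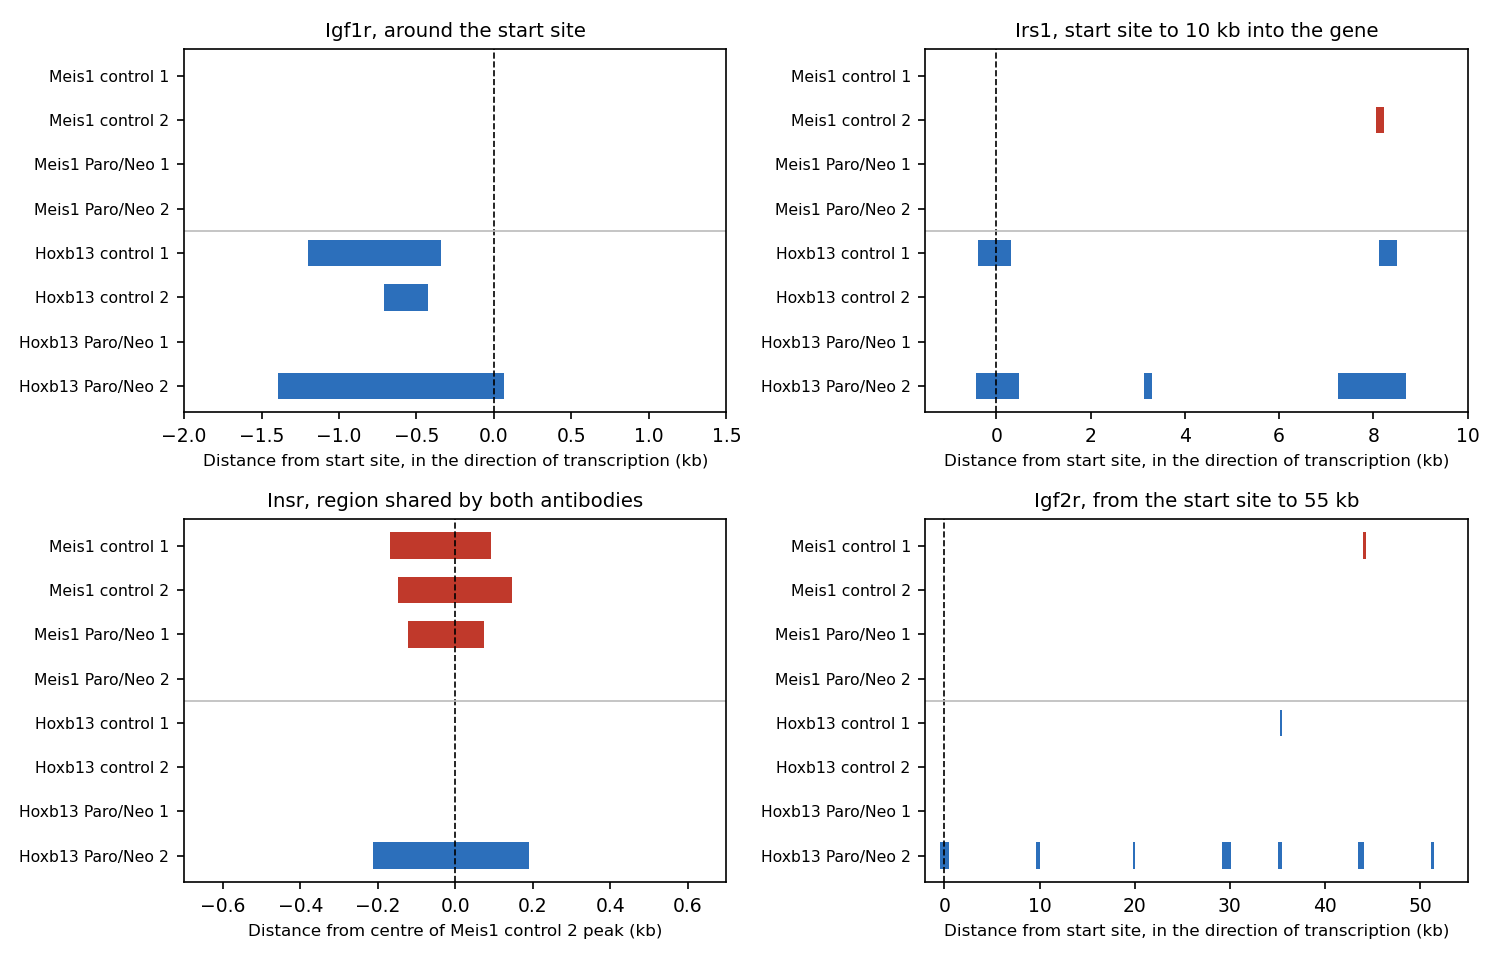
Peaks (horizontal bars, to scale) of each library at Igf1r, Irs1 and Igf2r, against distance from the start site in kb, and at Insr, against distance from the centre of the Meis1 control replicate 2 peak; red is Meis1 and blue Hoxb13. The 3 Meis1 peaks at Insr stack within the single Hoxb13 peak of Paro/Neo replicate 2, and the Hoxb13 peaks nearest the Igf1r start end before it in both controls. Each panel shows part of its gene, and peaks beyond its limits are not drawn. These are the peaks 177 and 242 kb into Igf1r, 33.6 and 48.1 kb into Irs1 and 80.8 kb into Igf2r, and the other Hoxb13 peaks at Insr.

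Peaks of the 2 antibodies met at 4 of the 7 Meis1 regions (57.1%). Of the 3077 Meis1 regions at all protein-coding genes, 34.7% overlapped a Hoxb13 region. The shared places were Insr, Irs1, Igf2r and the gap between Pa2g4 and Erbb3. At Insr the Hoxb13 peak of Paro/Neo replicate 2 (3187555 to 3187957, percentile 9.06) enclosed all 3 Meis1 peaks, with centres 10 to 28 bp apart. At Irs1 the Meis1 peak of control replicate 2 shared 123 bp with the Hoxb13 peak of control replicate 1 and lay wholly inside that of Paro/Neo replicate 2, with centres 164 bp apart in each case. At Igf2r the overlap was 87 bp, with centres 373 bp apart. The titles set the libraries of the 2 antibodies apart, with 4 inputs each, so antibody and set of libraries cannot be told apart. A Hoxb13 peak of Paro/Neo replicate 2 took part in 3 of these 4 overlaps, and that list had a peak at 46.5% of all genes.

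Within their lists the peaks at these genes were mostly of middle or low rank. The median percentile was 21.9 in Meis1 control replicate 1 (5 peaks), 49.1 in control replicate 2 (4 peaks), 37.8 in Hoxb13 control replicate 1 (7 peaks) and 38.9 in Paro/Neo replicate 2 (24 peaks), where 50 would be the middle of the list. The remaining libraries had 1 peak each, at percentiles 38.4 and 24.2 for Meis1 Paro/Neo replicates 1 and 2, 8.65 for Hoxb13 control replicate 2 and 38.0 for Hoxb13 Paro/Neo replicate 1. No Meis1 peak, 2 of the 7 peaks of Hoxb13 control replicate 1 and 4 of the 24 peaks of Paro/Neo replicate 2 were at or above percentile 75. They were at Igf1r and Igf2r in control replicate 1, and at Erbb4, Irs1 and Igf2r (2 peaks) in Paro/Neo replicate 2. Median widths of the members' peaks, 250 and 280 bp in the Meis1 controls and 390 and 433 bp in Hoxb13 control replicate 1 and Paro/Neo replicate 2, were near those of the full lists (255, 260, 412 and 495 bp).

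**Figure D4:**
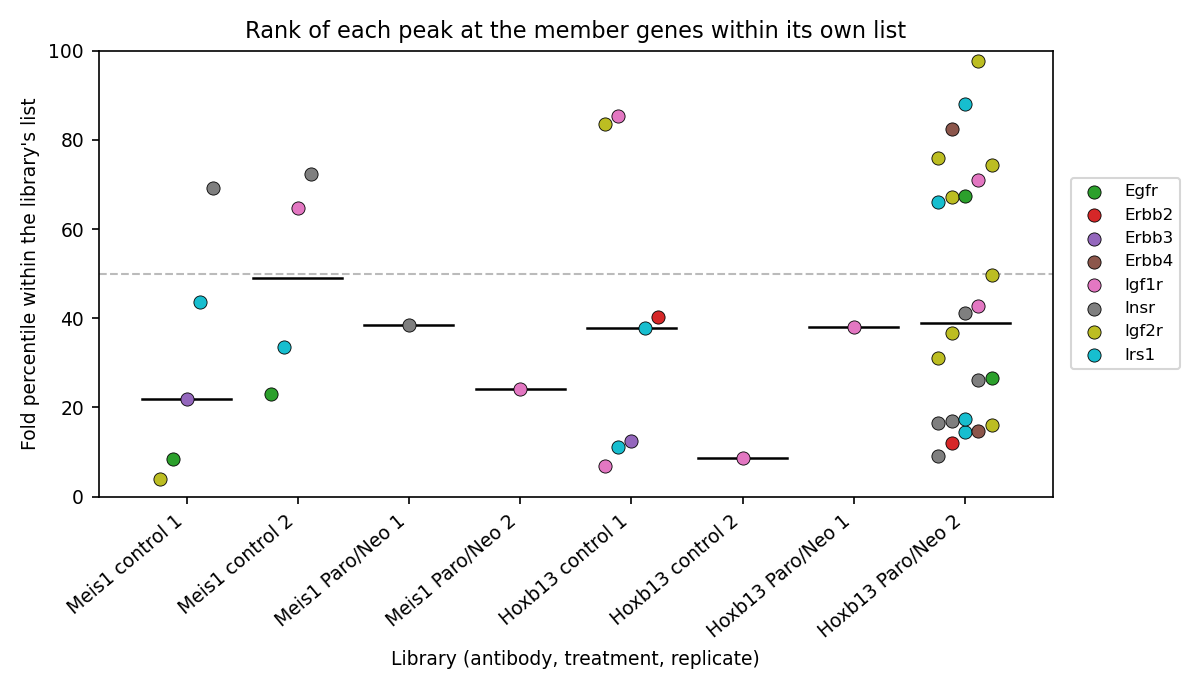
Fold percentile of every member peak (points, coloured by gene) in its own library's list, with the median of the library as a black line and the middle of the list dashed. The 8 medians lie below 50, and the highest point is Igf2r in Hoxb13 Paro/Neo replicate 2 at 97.6.

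After Paro/Neo, fewer Meis1 peaks were called at these genes, as in the Meis1 lists at large. There were 5 and 4 peaks in control replicates 1 and 2 (4.5 ± 0.707, SD, n = 2) and 1 in each Paro/Neo library, so the groups did not overlap. Genes with a peak numbered 5 and 4 of 10 in the controls, where 8.59% and 8.2% of all genes had one, and 1 of 10 in each Paro/Neo library, where 4.07% and 2.83% did. The Paro/Neo peaks were those of the repeated regions at Insr (replicate 1) and Igf1r (replicate 2). Egfr was the gene with a region in both controls and neither Paro/Neo library (1 of 10, against 2.42% of all genes). At −log10 q of at least 2, the Egfr region was left in control replicate 2 alone (1.57 and 2.47 in control replicates 1 and 2). Irs1 had 1 peak in each control, at different positions, and none after Paro/Neo. Igf2r and Erbb3 had a peak in control replicate 1 only.

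The lists themselves held 3529 and 3176 peaks in the controls and 1541 and 1025 after Paro/Neo. With each list reduced to its 1025 peaks of highest fold, the members had 0 and 1 peaks in the controls and 1 and 1 in the Paro/Neo libraries, and the lower number after Paro/Neo was no longer seen. With the second replicates exchanged the difference in mean number of peaks was −0.5, in place of −3.5. With 2 against 2 libraries, an exact two-sided permutation test cannot give a p below 0.333, and none was run.

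Hoxb13 peak numbers at these genes did not separate the treatments. There were 7 and 1 peaks in the controls (4.0 ± 4.24, SD, n = 2) and 1 and 24 in the Paro/Neo libraries (12.5 ± 16.3, SD, n = 2), so the groups overlapped. Genes with a peak numbered 5 and 1 of 10 in the controls, where 24.2% and 5.79% of all genes had one, and 1 and 7 of 10 in the Paro/Neo libraries, where 4.2% and 46.5% did. The counts followed the list lengths of 5202, 1121, 821 and 16963 peaks: member peaks made up 0.135%, 0.0892%, 0.122% and 0.141% of them. Paro/Neo replicate 2 was the sole source of 18 of the 25 Hoxb13 regions (72.0%), against 71.1% of all 17634 Hoxb13 regions. Without that library the mean difference turned from 8.5 to −3.0 peaks, and 1 gene, Igf1r, had a repeated region; without control replicate 1 it was also 1. The 4 regions called in 2 libraries each paired control replicate 1 with Paro/Neo replicate 2, so none was common to both libraries of a treatment and missing from the other.

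Other genes of the pathway, 76 in a chosen list, also had the most peaks in the Meis1 controls and in Hoxb13 Paro/Neo replicate 2. Meis1 peaks lay at 10 and 11 of them in the controls (8.59% and 8.2% of all genes) and 5 and 3 in the Paro/Neo libraries (4.07% and 2.83%). Hoxb13 peaks lay at 32 and 8 in the controls (24.2% and 5.79% of all genes) and 4 and 60 in the Paro/Neo libraries (4.2% and 46.5%). No peak in any of the 8 libraries was found at 13 of the 76, among them 8 of the 13 ligands, where 49.9% of all genes had none. Meis1 regions shared by 2 or more libraries were found at 8 genes: Egf, Adam19, Igfbp4, Foxo3, Pdpk1, Pik3r1, Grb10 and Lrig1 (8 of 76, against 6.18% of all genes). For Hoxb13 there were 32 of 76 (against 22.9%). They comprised 1 of 13 ligands, 7 of 11 binding proteins and sheddases and 5 of 10 adaptors. The rest were 9 of 18 PI3K and AKT branch genes, 1 of 7 of the ERK branch and 9 of 17 negative regulators. Gene length, which bears on such counts, was not taken into account for these 76 genes.

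A region in all 4 libraries was found at 1 of the 76 genes for Meis1, Lrig1 (1.75% of all genes), and at 2 for Hoxb13, Hbegf and Gsk3b (2.84% of all genes); these counts do not set the pathway apart from all genes. The Meis1 region listed for Lrig1, a membrane protein that restrains ErbB receptors, lay outside it and within Slc25a26 (chromosome 6, 94601036 to 94601517, mean percentile 85.8). Grb10, an adaptor that inhibits Igf1r and Insr, held 3 Meis1 regions in 3 libraries each (mean percentiles 66.0, 55.7 and 45.8) and a Hoxb13 region in 3 (82.9), all inside the gene. Adam19, a sheddase of neuregulin, had a Meis1 region in 3 libraries (percentile 31.3). The Hoxb13 region at Hbegf, an ErbB ligand, crossed a gene end (601 bp, mean percentile 90.0), as did that at Gsk3b, a kinase restrained by AKT (1605 bp, 71.4). Hoxb13 regions in 3 libraries crossed a gene end of Irs2 (74.3), Shc1 (72.8) and Cbl (63.0) and lay within Pdpk1 (52.9). Such a region also lay between Igfbp2 and Igfbp5 (48.5), counted for both, and a further one counted for Shc1 (61.0) lay outside it, at Pygo2. Another annotated gene was overlapped at Hbegf (Gm41698), Irs2 (9530052E02Rik), Shc1 (Cks1b), Gsk3b (BC031361) and Pdpk1 (Gm33409). The Grb10 Meis1 region of mean percentile 55.7 also overlapped LOC102631979.

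**Figure D5:**
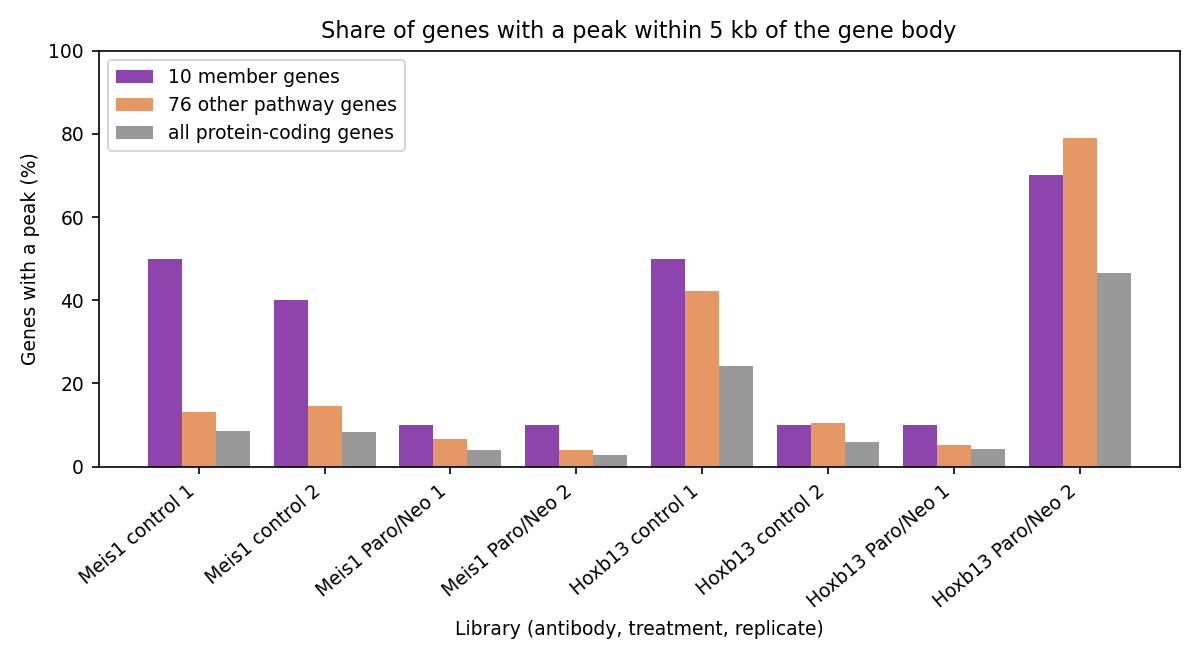
Percentage of genes with a peak in each library for the 10 members, 76 other pathway genes and all protein-coding genes. In all 3 sets the Meis1 controls stand above both Meis1 Paro/Neo libraries and the tallest bars are in Hoxb13 Paro/Neo replicate 2; each member is 10% of the first bar.

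The tissue was checked by the genes of its cell types, although a peak is not a level of RNA. Of 10 cardiomyocyte genes, 9 held a Hoxb13 region called in all 4 libraries, among them Myh6, Ttn and Pln (2.84% of all genes did), and 1, Myl2, a Meis1 region in all 4 (1.75%). The merged Hoxb13 regions were wide, with 40787 bp at Myh6, up to 96161 bp at Ttn and 13409 bp at Pln. Median widths of single peaks in the Hoxb13 lists ran from 348 to 495 bp. A merged region can join several peaks of 4 libraries, so the 2 widths are not like measures. For Meis1 in all 4, the endothelial genes had 2 of 7, Pecam1 and Tek. For Hoxb13 in all 4 they had 1 of 7, Egfl7, by a region outside that gene that overlapped Agpat2. A region in at least 2 libraries lay at 9 of 10 cardiomyocyte genes for Hoxb13 (22.9% of all genes) and 5 of 10 for Meis1 (6.18%). By the same rule endothelial genes held 4 of 7 and 2 of 7, fibroblast genes 1 of 7 and 0 of 7, and macrophage and leukocyte genes 1 of 5 and 0 of 5, for Hoxb13 and Meis1. Schwann cell genes, which mark another cell type that uses ErbB3, and liver genes held no repeated region of either antibody. Cardiomyocytes and other cells of the ventricle were not separated, so a peak cannot be assigned to a cell type.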

How the data were processed

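Peak lists of 8 immunoprecipitated libraries were used as deposited. The submitters' processing notes name FastQC 0.11.5, Bowtie2, Picard 1.127, MACS2 and HOMER with build mm10. For the caller, options and control are not stated there. Each deposited fold enrichment (a ratio), −log10 p and −log10 q belongs to 1 peak; the smallest −log10 q is 1.0, and the deposited score is 10 times −log10 q rounded down and was not used. Folds ranked peaks within their own list only. Lists were called per library, not pooled. Sequencing depth is unknown.

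Chromosomes 1 to 19, X and Y were kept, which left out 24 peaks. Gene ends came from a RefSeq table of GRCm38.p6 without exons, so exon and intron were not assigned; all members and listed genes matched by symbol. Strand came from the RefSeq promoter table. Peaks sharing 1 bp or more with a gene body and 5 kb on both sides were assigned to it, and peaks of the 4 libraries of an antibody sharing 1 bp were merged. The members, the pathway and marker lists and the rules were chosen with earlier results of these data known, so no test was run over the members and counts are set beside the same counts over all genes. Named genes were all members, every region called in at least 2 libraries, the highest single-library regions, and pathway genes with a region in 3 or 4 libraries. A limit of 8 such pathway genes per antibody had been set, but 9 were named for Hoxb13, where Igfbp2 and Igfbp5 share a region. The overlap code was tested on 200 planted genes among 21883 and recovered 200. Python 3.11.15, pandas 2.3.3 and numpy 2.4.6 were used. Alternatives were the window, the q limit, the overlap, equal list lengths, the merging distance, each library left out, and exchanged Meis1 second replicates.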

Additional observations from a re-analysis of the deposited data

How the results depend on the processing

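With lists reduced to the length of the shortest (1025 Meis1 and 821 Hoxb13 peaks), genes with a repeated region numbered 1 for Meis1 and 0 for Hoxb13, in place of 3 and 4, and the Meis1 difference in mean peaks at the members (Paro/Neo minus control) was 0.5 in place of −3.5. The Meis1 difference was −3.0 with the gene body alone, −5.0 with 20 kb on both sides, −2.0 at −log10 q of at least 2 and −0.5 with the second replicates exchanged. Leaving out 1 library at a time, it ran from −4.0 to −3.0, and genes with a repeated Meis1 region from 1 (without control replicate 2) to 3. For Hoxb13 these genes ran from 1 (without control replicate 1 or Paro/Neo replicate 2) to 4, and the difference from −3.0 (without Paro/Neo replicate 2) to 20.0 (without Paro/Neo replicate 1), against 8.5; at −log10 q of at least 2 it was 4.0 and with lists of equal length 0.5. Other alternatives moved the counts of genes by at most 1.5 times. At −log10 q of at least 2, genes with a repeated Meis1 region numbered 2, and Egfr was no longer among them. The causes were not tested. No paired analysis was possible because these counts come from no test; between libraries of the same number the members had −4 and −3 Meis1 and −6 and 23 Hoxb13 peaks after Paro/Neo relative to control, and the labels do not say that a number marks shared animals. Depth is unknown, so an absent peak sets no limit on binding.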

Other observations

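Between 5 and 20 kb from the member genes, the range searched, peaks were found near Erbb2 and Erbb3 and near none of the other 8. The nearest, of Hoxb13 Paro/Neo replicate 2, lay 11.9 kb from Erbb2 at percentile 5.98. At 17.2 to 17.9 kb from Erbb2, within Pgap3, both Meis1 controls (percentiles 35.3 and 32.1) and Hoxb13 Paro/Neo replicate 2 (42.3) had overlapping peaks. Near Erbb3, at Zc3h10 and 19.4 to 19.5 kb away, Hoxb13 control replicates 1 and 2 and Paro/Neo replicate 2 had overlapping peaks at percentiles 93.7, 50.8 and 94.6. Rpl41, a ribosomal protein gene 18.2 to 18.4 kb from Erbb3, held Hoxb13 peaks of control replicate 1 (percentile 58.6) and Paro/Neo replicate 2 (15.7) and a Meis1 peak of control replicate 2 (29.8).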
